A study of Mus musculus with 6 samples.

Results

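The fibroblast growth factor (Fgf) receptors and the Fgf ligands of the mammary fat pad were followed in mammary glands engrafted with WT or Adamts18-/- epithelium. The 10 genes, of 34590 in the deposited table, were taken by symbol: the receptor kinases Fgfr1, Fgfr2, Fgfr3 and Fgfr4, the kinase-lacking receptor Fgfrl1 and the ligands Fgf1, Fgf2, Fgf7, Fgf10 and Fgf18. RNA was sequenced from 6 inguinal glands (gland number 4) of 3 host mice, with WT.EGFP+ epithelium on the left and Adamts18-/-.EGFP+ epithelium on the right of each host, so genotype and body side cannot be told apart. Adamts18 encodes a secreted metalloprotease, and the mutant allele, on a C57BL/6JOlaHsd background, lacks the exons for the zinc-binding catalytic site. In this graft model the hosts were WT females whose own epithelium had been removed from the fat pad, EGFP was driven by a chicken beta-actin promoter, and the stroma kept an intact Adamts18 gene. The paper describes the 3 pairs as separate experiments using 3 donors, so differences between mice cannot be told apart from those between donors or experiments. The age of the hosts when these glands were taken is not given in the sources used here.

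Fgf receptors are tyrosine kinases of the cell surface that bind Fgf ligands together with heparan sulfate and signal through the adaptor Frs2 to the Ras-MAPK and PI3K pathways. In the mammary gland, stromal Fgf10 and Fgf7 act on the epithelial splice form of Fgfr2, and epithelial Fgfr2 is needed for ductal branching. The pathway also switches on its own inhibitors, among them the Sprouty proteins and dual-specificity phosphatases.

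The labels describe GFP-positive mammary epithelial cells isolated by flow sorting, whereas marker genes of adipocytes and fibroblasts were more abundant than epithelial ones. In CPM, that is counts rescaled so that libraries of unequal depth compare, 24 pan-epithelial markers summed to between 1308 and 2575 in the 6 libraries. Likewise, 10 adipocyte markers summed to between 7970 and 18259 and 10 fibroblast markers to between 9328 and 12850, with every one of these markers detected in every library. The libraries are therefore called glands here. Total counts ranged from 53875123 to 71595924, and the limit left by a count of 0, taken as 3 counts, stood for 0.0419 to 0.0557 CPM (counting error only). Adamts18 itself had 252, 608 and 383 counts on the WT side of mouse 1, 2 and 3, respectively, and 144, 295 and 202 in the Adamts18-/- glands, and was lower in the Adamts18-/- gland of 3 of 3 mice (log2 fold change -0.83, SE 0.19). The count covers the whole gene, including exons that the allele keeps. Both glands of mouse 2 held Y-linked transcripts (1271 and 1140 counts over 4 genes, against 0 to 6 in the other glands), and both glands of mouse 3 were richest in B cell markers (141 and 664 CPM, against at most 16.5 elsewhere). Results are therefore also given without those mice where this changes them.

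Of the 10 genes, 10 passed the filter on low counts and 2, Fgfr2 and Fgf1, were lower in Adamts18-/- glands at the study's thresholds, a fold change under 0.8 with an unadjusted p under 0.05. Over all 17345 genes tested with edgeR's quasi-likelihood test and the mouse as a block, 1.84% were lower by the same rule. None of the 10 was higher by the mirrored rule, which 1.17% of all genes passed. Of all genes, 0% reached an adjusted p under 0.05 with edgeR, 3.86% had an unadjusted p under 0.05, and DESeq2 put 71 under an adjusted 0.05. With edgeR the adjusted p was 0.987 for 9 of the 10 genes and 0.991 for Fgf18, so neither call survived the correction over all genes. With DESeq2 Fgfr2 did (adjusted p = 0.00145), whereas over the other alternatives its adjusted p was at least 0.196. Calls are therefore descriptions at the study's thresholds, and each fitted value is given with its standard error or 95% interval from the same edgeR fit.

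The promoters of Fgfr2 and Fgf10 are shown because they belong to the receptor with the largest decrease and to its stromal ligand, the most abundant of the 5 ligands. Each is the 250 bases upstream of the RefSeq start (GRCm38.p6), read 5′ to 3′ on the gene's strand, with CG dinucleotides in capitals. Both stretches lie inside the GENCODE M21 gene spans given below, so these RefSeq starts are not the outermost starts of those spans. Neither stretch overlapped an annotated exon of GENCODE M21.
Fgfr2, chr7:130266809-130267058, minus strand: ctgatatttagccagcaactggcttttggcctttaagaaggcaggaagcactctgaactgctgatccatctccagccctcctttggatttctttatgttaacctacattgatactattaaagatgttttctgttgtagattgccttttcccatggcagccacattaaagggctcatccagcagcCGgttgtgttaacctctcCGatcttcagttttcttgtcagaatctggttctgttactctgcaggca
Fgf10, chr13:118714449-118714698, plus strand: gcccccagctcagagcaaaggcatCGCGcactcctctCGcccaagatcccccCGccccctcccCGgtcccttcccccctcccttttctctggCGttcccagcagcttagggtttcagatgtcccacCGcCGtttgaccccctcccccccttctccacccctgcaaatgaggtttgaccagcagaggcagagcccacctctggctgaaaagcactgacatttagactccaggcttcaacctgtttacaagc
The Fgfr2 stretch had 44.0% G and C and 2 CG dinucleotides, and the Fgf10 stretch 61.2% and 8, where the median over 32851 RefSeq promoters was 52.4% and 6. The core of the Tead motif, GGAATG or its complement CATTCC, was present in 0 of the 9 promoters listed for 8 of the 10 genes and in 12.6% of all promoters of this length. The absence says only that these letters are not in this window.

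Fgfr2, on chromosome 7 (130162451 to 133123350, minus strand, GRCm38), encodes the receptor for Fgf7 and Fgf10 in its epithelial splice form. It had 141, 128 and 198 CPM on the WT side of mouse 1, 2 and 3, respectively, and 109, 74.6 and 115 CPM in the Adamts18-/- glands. Every Adamts18-/- gland was below every WT gland, the only gene of the 10 without overlap and an arrangement shown by 2.63% of all genes. The mean level was 156 ± 37.6 CPM (SD, n = 3) in WT and 99.6 ± 21.9 CPM (SD, n = 3) in Adamts18-/- glands. The fitted level was 0.640 times that of WT (95% interval 0.524 to 0.781), a log2 fold change of -0.64 (SE 0.11, edgeR adjusted p = 0.987). Within mice the log2 difference was -0.38, -0.78 and -0.78, so the decrease was smallest in mouse 1. Without mouse 1, 2 or 3 the fitted log2 fold change was -0.78, -0.58 or -0.57, each past the thresholds. These gene counts do not separate the epithelial and mesenchymal splice forms of Fgfr2.

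**Figure D1:**
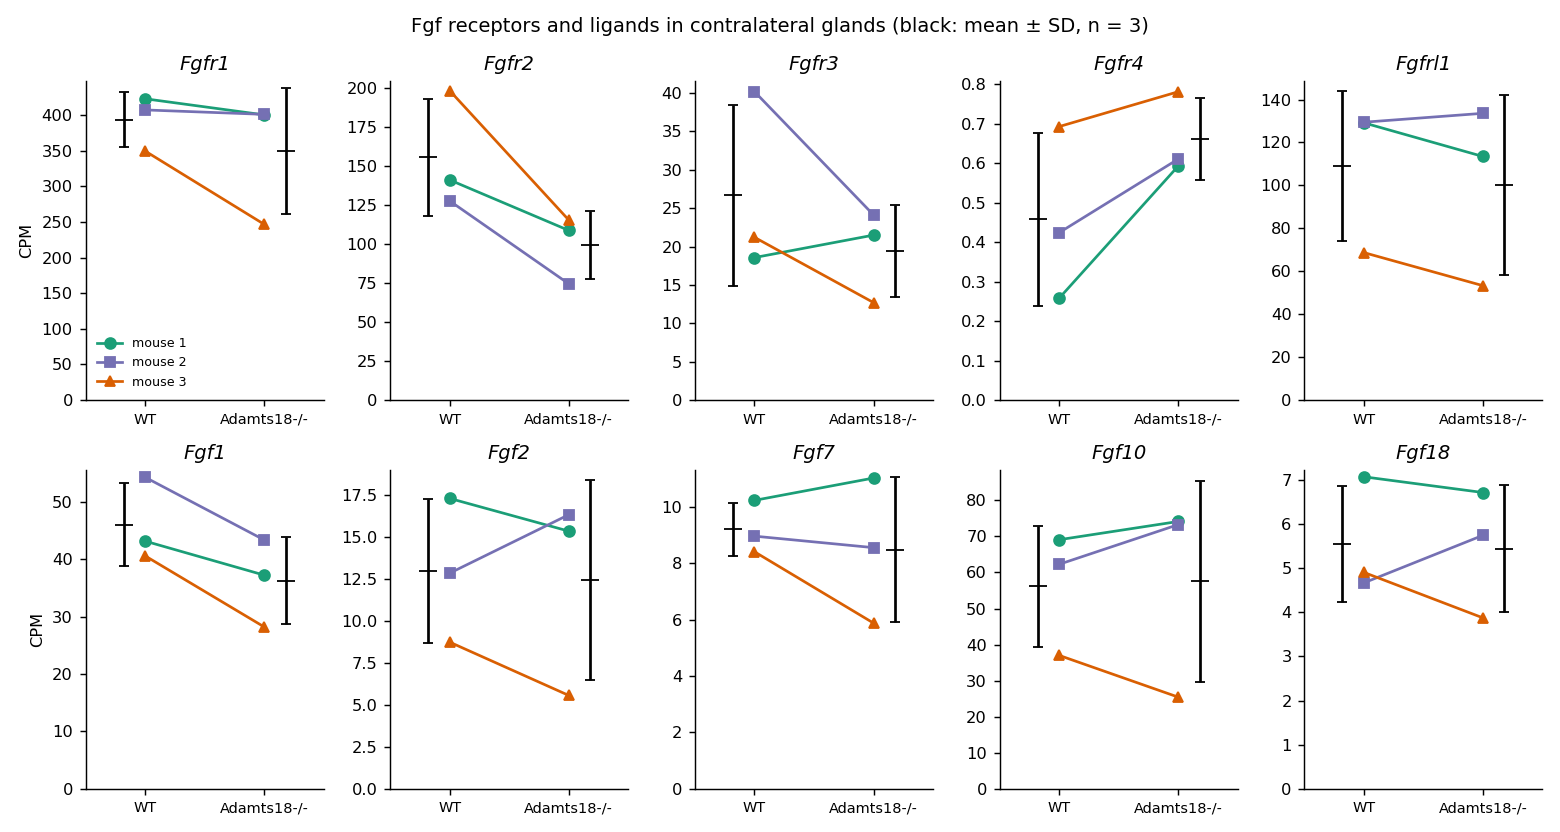
Level of each gene in CPM (vertical axes, each from 0) in the WT and Adamts18-/- gland of each mouse. Lines join the contralateral glands of a host and black bars are the mean ± SD of 3 glands, and all 3 Fgfr2 lines fall, from 128 to 198 CPM in WT to 74.6 to 115 CPM in Adamts18-/- glands.

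Most epithelial markers were fitted lower too, by amounts that differed between mice. All 24 pan-epithelial markers had a lower fitted level in Adamts18-/- glands (median log2 fold change -0.38), and 6 of them, Krt7, Krt8, Krt18, Krt19, Spint1 and St14, passed the thresholds. Their summed level differed by -0.04, -0.76 and -0.51 on the log2 scale in mice 1, 2 and 3. Of 10 myoepithelial markers, 9 were lower past the thresholds (median -0.49), and the sum of the 10 differed by -0.31, -0.46 and -0.59. In mouse 1 Krt5 and Krt14 were slightly higher in the Adamts18-/- gland (0.14 and 0.02), and the rest of the list was lower. Among the rest were contractile genes such as Acta2 (-0.28 in mouse 1) and Myh11 (-0.51). The part of other smooth muscle cells in this sum was not tested. Of 8 markers of hormone-sensing luminal cells, 4 passed as lower and 2, Areg and Ly6a, were fitted higher (0.61 and 0.03). The sum of the 8 differed by -0.13, -0.15 and -0.60. The sum of the secretory luminal markers differed by 0.15, -1.19 and -0.57. In mouse 2 it leaned on Ltf, which held 291 of 775 CPM in the WT gland and 40.5 CPM in the Adamts18-/- gland. The other markers detected in that mouse were lower as well. In mouse 1 the pan-epithelial sum hardly differed between the glands while Fgfr2 differed by -0.38, and in mouse 2 both differed to about the same extent. In bulk RNA, fewer cells of a type and less RNA per cell cannot be told apart.

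Relative to the summed pan-epithelial markers of the same gland, Fgfr2 stood at 8.12%, 5.75% and 7.71% on the WT side of mouse 1, 2 and 3, respectively, and at 6.42%, 5.70% and 6.37% in the Adamts18-/- glands. The share was lower in 3 of 3 mice, by 0.34, 0.01 and 0.27 on the log2 scale, and in mouse 2 it was nearly equal. The mean log2 difference was -0.21 ± 0.17 (SD, n = 3), with an exact two-sided paired permutation p of 0.25, the smallest that 3 pairs allow. When all libraries were scaled to these markers instead, Fgfr2 was no longer past the thresholds (log2 fold change -0.21). That scaling raised the median of all genes by 0.44, and among the genes past the thresholds the share that was lower went from 61.1% to 1.53%.

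**Figure D2:**
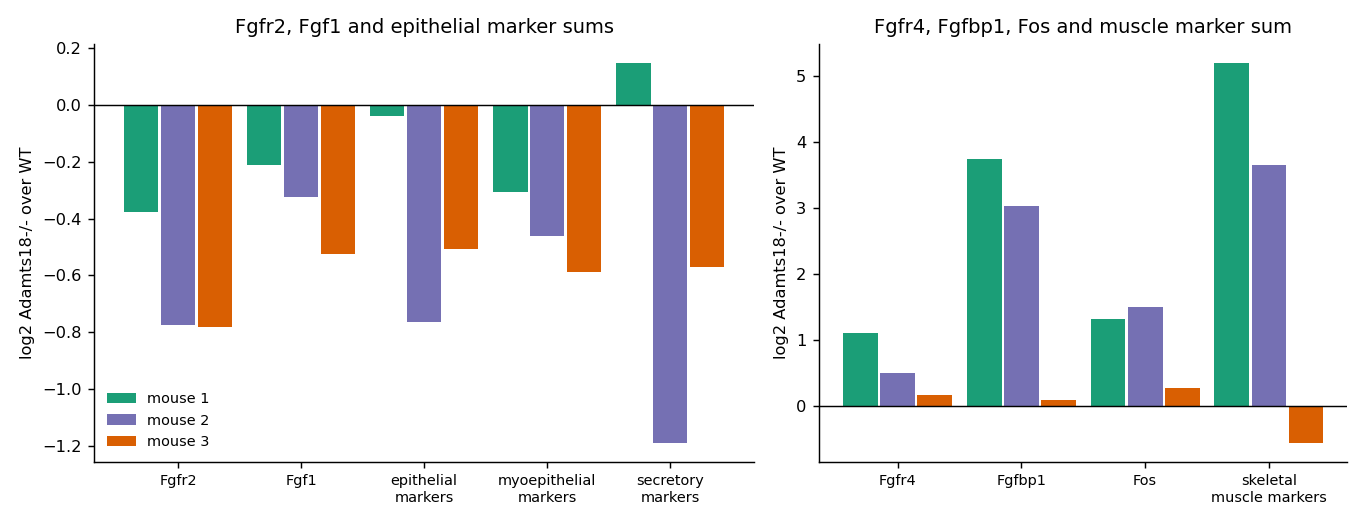
Log2 ratio of the Adamts18-/- to the WT gland (vertical axes) in each of the 3 mice, for Fgfr2 and Fgf1 beside the summed markers of epithelial classes (left) and for Fgfr4, Fgfbp1 and Fos beside the summed skeletal muscle markers (right). Fgfr2 was lower in all 3 mice, whereas the pan-epithelial sum was nearly level in mouse 1, and Fgfr4 and Fgfbp1 differed least in mouse 3, where the muscle markers were lower.

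Fgfr1 (chromosome 8, 25513654 to 25575718) is the main receptor of mesenchymal cells and is also made by mammary epithelium. Its level was 423, 407 and 350 CPM in WT glands and 400, 401 and 247 CPM in Adamts18-/- glands. The groups overlapped, although the Adamts18-/- gland was the lower in each mouse, with log2 differences of -0.08, -0.02 and -0.50, the largest in mouse 3. The log2 fold change was -0.20 (95% interval -0.54 to 0.14), and without mouse 3 it was -0.043. As a percent of the Fgfr1 counts of the same gland, Fgfr2 counts were 33.4, 31.4 and 56.8 in WT and 27.2, 18.6 and 46.8 in Adamts18-/- glands. This ratio was lower in 3 of 3 mice, with a mean log2 difference of -0.44 ± 0.27 (SD, n = 3). Its exact two-sided paired permutation p was 0.25, again the smallest possible. In mice 1, 2 and 3 the ratio differed by -0.30, -0.75 and -0.28, beside -0.04, -0.76 and -0.51 for the summed pan-epithelial markers. The part of the epithelial share of the RNA in this ratio was not tested.

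Fgfr3 (chromosome 5, 33721674 to 33737068), a receptor best known from cartilage and epithelia, had 18.6, 40.2 and 21.2 CPM in WT and 21.5, 24.1 and 12.7 CPM in Adamts18-/- glands. Mice 2 and 3 had the lower value in the Adamts18-/- gland and mouse 1 the higher, and the groups overlapped. The log2 fold change was -0.42 (95% interval -1.01 to 0.16), and without mouse 1 it was -0.74, past the thresholds. Without mouse 2 or mouse 3 it was -0.26, not past them.

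Fgfr4 (chromosome 13, 55152640 to 55168759), a receptor of liver and of regenerating muscle, was scarce, with 18, 26 and 39 counts in WT and 31, 37 and 48 counts in Adamts18-/- glands. It was the only gene of the 10 with a higher fitted level and was higher in 3 of 3 mice, as were 10.8% of all genes, but the groups overlapped. The log2 fold change was 0.60 (95% interval -0.16 to 1.36), and without mouse 1 it was 0.34. The differences within mice 1, 2 and 3 were 1.10, 0.49 and 0.17 on the log2 scale. Skeletal muscle markers, 10 of 10 detected in every library, summed to 311 to 2924 CPM in WT and 1984 to 11424 CPM in Adamts18-/- glands and differed by 5.19, 3.65 and -0.56 in the same mice. All 10 were fitted higher and 0 passed the thresholds. Their part in the Fgfr4 value was not tested.

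Fgfrl1 (chromosome 5, 108692382 to 108706924) binds Fgfs but lacks the kinase and can act as a decoy. Its level was 129, 129 and 68.7 CPM in WT and 113, 134 and 53.3 CPM in Adamts18-/- glands. Both glands of mouse 3 were low whatever their genotype, and the log2 fold change was -0.17 (95% interval -0.43 to 0.09). Without mouse 2 it was -0.28 and without mouse 3 it was -0.062, neither past the thresholds.

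Of the ligands, Fgf1 (chromosome 18, 38838673 to 38929472), which can activate all Fgf receptors, was the one past the thresholds. It had 43.2, 54.3 and 40.6 CPM in WT glands and 37.2, 43.4 and 28.2 CPM in Adamts18-/- glands. The Adamts18-/- gland was the lower in each mouse, but the groups overlapped because the Adamts18-/- gland of mouse 2 exceeded the WT glands of mice 1 and 3. The fitted level was 0.783 times that of WT, a log2 fold change of -0.35 (SE 0.09, 95% interval -0.59 to -0.12, edgeR adjusted p = 0.987). The within-mouse differences were -0.21, -0.32 and -0.52. The call was lost without mouse 2 (-0.37, unadjusted p above 0.05), without mouse 3 (-0.26, a fold change nearer 1 than the threshold), without the replicate block (-0.34, unadjusted p above 0.05) and with scaling to the pan-epithelial markers, where the value turned to 0.082.

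Fgf10 (chromosome 13, 118669791 to 118792115), the stromal ligand of Fgfr2 needed for mammary bud formation, had 69.1, 62.3 and 37.0 CPM in WT and 74.1, 73.3 and 25.4 CPM in Adamts18-/- glands. The glands of mouse 3 were the lowest of both groups, and the level was higher in the Adamts18-/- gland of mice 1 and 2 and lower in that of mouse 3. The log2 fold change of -0.06 had a 95% interval of -0.51 to 0.38. Without mouse 3 it turned to 0.18.

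Fgf7 (chromosome 2, 126034658 to 126091185), the other stromal ligand of epithelial Fgfr2, had 10.2, 8.95 and 8.40 CPM in WT and 11.01, 8.55 and 5.87 CPM in Adamts18-/- glands, a log2 fold change of -0.16 (SE 0.16). Fgf2 (chromosome 3, 37348346 to 37410108), a broadly acting ligand stored in matrix, had 17.3, 12.9 and 8.74 CPM in WT and 15.4, 16.3 and 5.56 CPM in Adamts18-/- glands, a log2 fold change of -0.15 (SE 0.21). Fgf18 (chromosome 11, 33117430 to 33147400), a ligand of the mesenchymal receptor forms, had 7.07, 4.66 and 4.90 CPM in WT and 6.71, 5.74 and 3.87 CPM in Adamts18-/- glands, a log2 fold change of -0.04 (SE 0.18). For each of these ligands the groups overlapped and the Adamts18-/- gland of mouse 3 was the lowest of all 6. Without mouse 3 their log2 fold changes turned to 0.029 for Fgf7, 0.094 for Fgf2 and 0.12 for Fgf18.

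**Figure D3:**
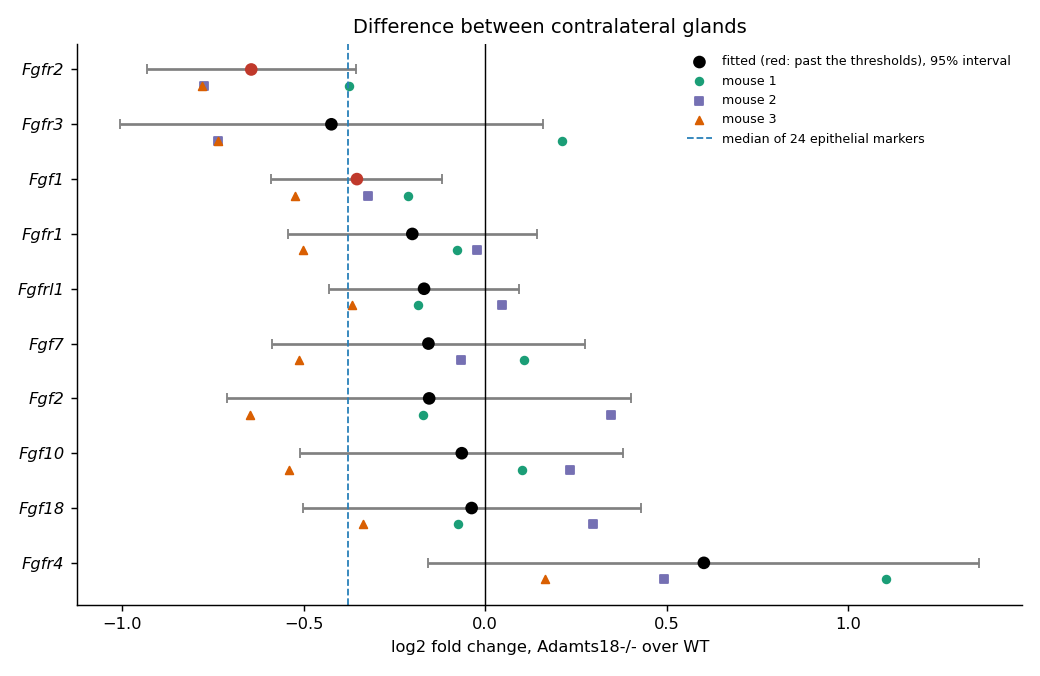
Fitted log2 fold change of Adamts18-/- over WT glands (horizontal axis) with its 95% interval for the 10 genes, red where past the thresholds, with the difference in each mouse as coloured symbols below. The intervals of Fgfr2 and Fgf1 lie below 0, and the dashed line marks the median of the 24 epithelial markers, -0.38.

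The mice differed in how many of the genes were lower. On the Adamts18-/- side 6 of the 10 genes were lower in mouse 1, 5 in mouse 2 and 9 in mouse 3. The median log2 difference over the 10 genes was -0.08, 0.01 and -0.52 in mice 1, 2 and 3, and that over all genes -0.01 in each. Fgfr1, Fgfr2 and Fgf1 were lower in all 3 mice, as were 12.7% of all genes. Over the 10 genes 9 had a fitted decrease (median -0.16, against 0.00 over all genes), of which 8 turned positive with scaling to the pan-epithelial markers. In mouse 3, where most of the genes were lower, B cell markers summed to 141 CPM in the WT and 664 CPM in the Adamts18-/- gland and T cell markers to 109 and 308 CPM, and their part in these values was not tested.

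Levels can be set against each other only per length of transcript, as CPM per 1000 exonic bases (RPKM). On that scale the order of mean levels over the 6 glands was Fgfr1 with 71.2, Fgfrl1 with 40.4, Fgfr2 with 25.0, Fgf10 with 13.8, Fgf1 with 7.94, Fgfr3 with 5.24, Fgf18 with 4.63, Fgf7 with 2.81, Fgf2 with 1.95 and Fgfr4 with 0.168. The ranges over the glands overlapped between every pair of neighbours in that order except Fgf2 and Fgfr4. Within glands the order was firmer for some pairs. Fgfr1 exceeded Fgfrl1 and Fgf10 exceeded Fgf1 in 6 of 6 glands, Fgfrl1 exceeded Fgfr2 in 4 of 6, Fgfr2 exceeded Fgf10 in 5 of 6, and Fgfr3 exceeded Fgf18 in 3 of 6. Fgf10 was thus the most abundant of the 5 ligands in mean RNA level, and Fgfr4 RNA was the scarcest of the 10.

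For 9 of the 10 genes the range of the mean log2 CPM over the 3 mice was larger than the size of the fitted genotype difference. The share of all genes with such a range was not worked out. Fgfr2 was the exception only narrowly, with a range of 0.63 beside a genotype difference of -0.64 (SE 0.11). The ranges were widest for Fgf10 (1.22), Fgf2 (1.22) and Fgfrl1 (1.12), beside genotype differences of -0.06, -0.15 and -0.17. Averaged over both glands, mouse 3 held 0.442 times the Fgf10 level of mice 1 and 2, 0.455 times the Fgf2 level and 0.480 times the Fgfrl1 level. Fgfr2 went the other way, with 1.38 times the level of mice 1 and 2. Adipocyte markers summed to 18073, 17757 and 10259 CPM on the WT side of mouse 1, 2 and 3, respectively, and to 15727, 18259 and 7970 CPM in the Adamts18-/- glands, and so were also lowest in mouse 3. The part of adipocyte RNA in the Fgf10 and Fgf2 levels was not tested.

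**Figure D4:**
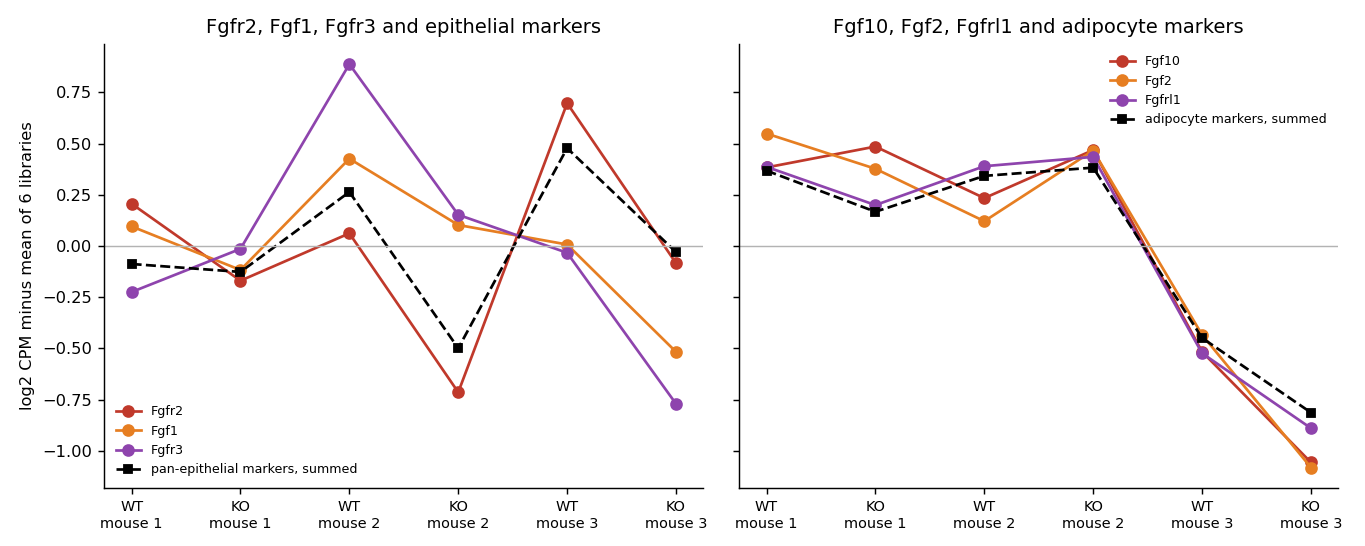
Log2 CPM minus its mean over the 6 glands (vertical axes) along the WT and Adamts18-/- (KO) glands of mice 1 to 3, for Fgfr2, Fgf1 and Fgfr3 with the summed pan-epithelial markers (left) and for Fgf10, Fgf2 and Fgfrl1 with the summed adipocyte markers (right). Fgfr2 falls from the WT to the KO gland in each host, and the genes on the right are low in both glands of mouse 3.

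The profiles over the 6 glands were compared by the root mean square difference of log2 CPM after each gene's own mean was subtracted, over 14709 genes with a mean of at least 1 CPM, which leaves out Fgfr4. Fgf10 and Fgf2 were the most alike of the members (0.10), followed by Fgf7 and Fgfr1 (0.12), and Fgf10 and Fgfr2 the least alike (0.85). The closest member to Fgfr2 was Fgf1, at 0.50, farther than the median of all genes from Fgfr2 (0.47). The genes nearest to Fgfr2 were 3830431G21Rik (0.05), Mycbpap (0.06), Slc7a2 (0.06), Gipc2 (0.09) and Prlr, the prolactin receptor of luminal cells (0.10). Those nearest to Fgf10 were Gm12725 (0.06), Prex2 (0.07), Tspan12 (0.07), Amy1 (0.08) and Klf14 (0.08), where the median of all genes was 0.60. These 6 points share hosts in pairs and describe likeness only.

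The remainder of the pathway was read from 6 lists of 89 genes, of which 88 were in the table and 78 could be tested. Past the thresholds 0 were lower and 4 higher, 5.13% of those tested against 3.01% of all genes, and 6 had an unadjusted p under 0.05. The median log2 fold change of the 78 was -0.04 and their smallest adjusted p was 0.987.

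Of the 17 other members of the Fgf ligand family, 8 had too few counts to test (Fgf3, Fgf5, Fgf6, Fgf8, Fgf15, Fgf21, Fgf22 and Fgf23), 9 were tested and 0 passed the thresholds in either direction. The most abundant per length was Fgf13, an intracellular family member that does not act as a secreted ligand (6.97 RPKM, log2 fold change -0.01), followed by Fgf11, of the same intracellular group (5.51 RPKM), and the other 7 tested had at most 0.702 RPKM.

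Among co-receptors and carriers, which include klothos, syndecans, glypicans and Flrt proteins, 15 of 16 were tested and 1, Fgfbp1, passed. Fgfbp1 encodes a secreted protein that releases Fgfs from the matrix. It had 0.143, 0.212 and 0.444 CPM in WT and 2.31, 1.96 and 0.472 CPM in Adamts18-/- glands. The WT values rested on 10, 13 and 25 counts. Every Adamts18-/- gland was above every WT gland, an arrangement shown by 2.31% of all genes, but in mouse 3 the glands were nearly level. Its log2 fold change was 2.44 (SE 0.85), with 3.73, 3.03 and 0.08 in mice 1, 2 and 3, beside the muscle marker differences of 5.19, 3.65 and -0.56. The syndecan Sdc4 had the highest mean level of this list over all glands (54.3 RPKM), close to that of the glypican Gpc3 (54.045 RPKM), which was the higher of the pair in Adamts18-/- glands (52.04 against 50.4 RPKM). Sdc4 had a log2 fold change of -0.23 (SE 0.12).

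Of 12 enzymes that build or trim heparan sulfate, 12 were tested, 0 passed and the log2 fold changes lay between -0.13 and 0.13, with the extracellular sulfatase Sulf2 the most abundant (32.4 RPKM). Of 22 adaptors and kinases downstream of the receptors, 21 were tested and 0 passed, within -0.19 to 0.12, and the MAP kinase Mapk3 had the highest mean level over all glands (70.7 RPKM), with Akt1 slightly above it in Adamts18-/- glands (66.9 against 66.8 RPKM).

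Of 11 feedback inhibitors 10 were tested and 0 passed, with 8 fitted lower (median -0.17). Dusp6, the phosphatase of Erk and the most abundant of them (20.6 RPKM), had a log2 fold change of 0.17 (SE 0.09). Dusp4 and Spred3, named after their values were seen, were lower in every Adamts18-/- gland than in any WT gland. That arrangement was shown by 2.63% of all genes. Dusp5, also named afterwards, was higher in every Adamts18-/- gland than in any WT gland (log2 fold change 0.27, SE 0.12), as were 2.31% of all genes. Of the 78 tested pathway genes, 3 were without overlap and lower and 3 without overlap and higher. Dusp4 had 45.7, 39.1 and 43.3 CPM in WT and 35.3, 32.1 and 35.4 CPM in Adamts18-/- glands, and its fold change of 0.803 lay just outside the threshold, with an unadjusted p under 0.05. It was past the thresholds with library size scaling, with upper quartile scaling, with no filter on low counts and without mouse 2. Spred3 had a log2 fold change of -0.27.

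Of 11 target genes 3 were higher past the thresholds, the immediate early genes Fos, Egr1 and Ier2. Fos had the highest mean level of the list over all glands (109 RPKM, range 19.6 to 317). Ccnd1, at 22.9 to 45.3 RPKM, exceeded it in the WT gland of mouse 3. Fos had 270, 92.2 and 41.2 CPM in WT and 669, 261 and 49.8 CPM in Adamts18-/- glands (log2 fold change 1.04, SE 0.27). Its log2 differences in mice 1, 2 and 3 were 1.31, 1.503 and 0.27, largest in mouse 2, where those of Fgfbp1 and of the muscle markers were largest in mouse 1. The part of muscle RNA in either gene was not tested. Egr1 had a log2 fold change of 0.60 (SE 0.14) and Ier2 one of 0.35 (SE 0.11). These genes were higher in the Adamts18-/- gland of 3 of 3 mice, and both glands of mouse 3 had the lowest levels. The Ets factors most tied to Fgf signaling gave log2 fold changes of -0.10 for Etv1, -0.22 for Etv4 and 0.06 for Etv5, none past the thresholds. Without mouse 1 none of Fgfbp1, Fos, Egr1 and Ier2 was past the thresholds, without mouse 2 Egr1 alone of these, and without the replicate block Fgfbp1 alone.

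**Figure D5:**
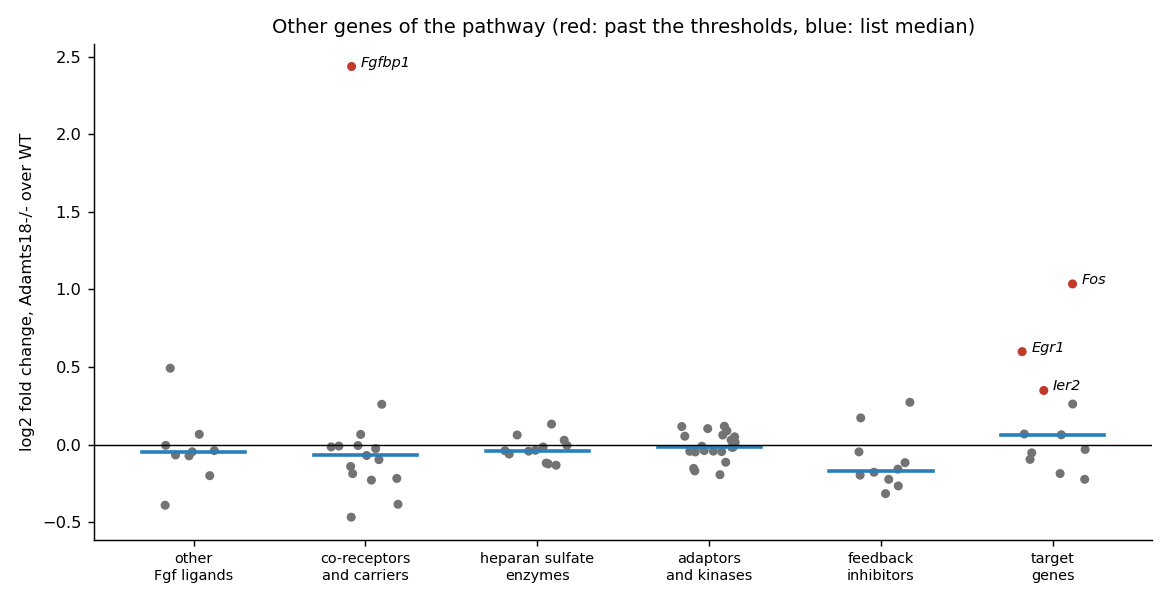
Fitted log2 fold change of Adamts18-/- over WT glands (vertical axis) for the 78 tested genes of the 6 pathway lists (horizontal axis, points spread sideways for legibility), with list medians as blue bars. The 4 genes past the thresholds, in red, are all higher, and the heparan sulfate enzymes stay within -0.13 to 0.13.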

How the data were processed

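The authors deposited raw read counts for each gene symbol, with 1 column for each gland. Per the labels' processing notes, single-end reads of 85 bases were handled with bcl2fastq 2.18, TopHat2 2.0.11 and featureCounts 1.6.2 on mm9, and edgeR is named too. The table has 0 columns of other samples and 0 rows without a gene name. Positions and exonic lengths come from GENCODE M21 (GRCm38), which gave 31494 of the 34590 symbols a length, and promoters from RefSeq (GRCm38.p6).

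Counts were tested with edgeR 4.0.16 in R 4.3.3 (TMM scaling, filterByExpr, quasi-likelihood test, mouse as a block, Benjamini-Hochberg adjustment over 17345 genes). CPM used the TMM library sizes, and log2 CPM a prior count of 2. A gene counted as lower with a fold change under 0.8, or higher over 1.25, at an unadjusted p under 0.05, the study's thresholds. Within-gland ratios were tested by exact paired permutation. Contralateral glands of mice 1, 2 and 3 deviated together (correlations 0.512, 0.505 and 0.639 after group means were removed), and the pairing comes from the labels. The chi-square per degree of freedom between any pair of libraries was 42.1 to 433, so no pair of libraries agreed within counting noise. The script was tested on simulated data. Total counts and the level of 3 counts are given with the results. P-values rest on 3 pairs of glands, and those of the fits also draw on a spread estimated over all genes.

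The 10 genes and the pathway and marker lists were chosen with earlier results of these data known. Named were the 10 genes, pathway genes past the thresholds, the most abundant gene per length of each list, and the 5 genes most like Fgfr2 and Fgf10. The 12 alternatives were 4 other scalings, 2 other filters, no block, DESeq2 1.42.0, limma-voom (limma 3.58.1) and each mouse left out.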

Additional observations from a re-analysis of the deposited data

How the results depend on the processing

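Fgfr2 was lower under all 12 alternatives (log2 fold change -0.78 to -0.21), with an adjusted p of 0.00145 by DESeq2 and of at least 0.196 otherwise, and past the thresholds in 11 of them, the exception being scaling to the pan-epithelial markers (-0.21). That scaling left 0 of the 10 genes lower and 1 higher (Fgfr4, 1.05), and turned Fgfr1 to 0.23, Fgfr3 to 0.015, Fgfrl1 to 0.27, Fgf1 to 0.082, Fgf2 to 0.27, Fgf7 to 0.28, Fgf10 to 0.37 and Fgf18 to 0.39, while the median of all genes rose by 0.44. With each mouse left out in turn Fgf2 ranged from -0.41 to 0.094, Fgf7 from -0.29 to 0.029, Fgf10 from -0.22 to 0.18 and Fgf18 from -0.21 to 0.12, each positive without mouse 3. Without the replicate block Fgf10 turned to 0.038, 1 of the 10 genes was lower (Fgfr2), 1 pathway gene was past the thresholds and 343 genes were called in all. Over the same omissions, 1 (Fgfr2) to 3 (Fgfr2, Fgfr3 and Fgf1, without mouse 1) of the 10 genes were lower and 0 higher, 1 to 6 pathway genes were called, and 533 to 867 genes were called in all, against 522 with all mice and 1966 with scaling to the pan-epithelial markers. The block changed no other call of the 10 genes than that of Fgf1. Genes with an adjusted p under 0.05 numbered 0 with edgeR, 71 with DESeq2, 268 without mouse 3 and 351 with the epithelial scaling. Of the genes past the thresholds, 61.1% were lower, against 46.6% with DESeq2, 49.9% with limma-voom, 36.4% without the block, 72.5% without mouse 1, 40.2% without mouse 2 and 33.0% without mouse 3. The cause of these changes was not tested. Genes near the floor, such as Fgfr4 with 18 to 48 counts, are limited by depth, and the rest by 3 pairs of glands.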
